A study of Mus musculus with 27 samples.

Results

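The measurements below describe 40 imprinted genes, taken by name from a table of 55367 genes and grouped by the imprinted locus each one lies in. The libraries were made from mouse morulae: 27 pools of about 15 to 20 wild-type embryos, cultured in KSOM embryo medium and harvested at E2.75 (days after fertilization), with 3 pools in each of 9 groups. In the inhibitor family, embryos were exposed from E2.5 to Vehicle, to SAHA (500 nM) or TSA (50 nM), which block histone deacetylases, or to A485 (10 µM), which blocks the catalytic domain of the acetyltransferases p300 and CBP. In the siRNA family, zygotes received cytoplasmic injections at E0.5 of siControl, siP300, siKat6a, siKat6b or siComb, named here as in the labels, which do not spell out what siComb combines. The doses are those in the column headers of the count table. Polyadenylated RNA was counted per gene, with no separation of parental alleles, so every value is the sum of both alleles. Each pool mixes embryos, and fewer cells of a kind cannot be told apart from less RNA per cell.

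As background, an imprinted gene is transcribed mainly from the allele inherited from one parent. At most imprinted loci the choice is carried by DNA methylation laid down in the egg or sperm, which the zinc finger protein ZFP57 and its partner TRIM28 protect while the rest of the early embryo's genome is demethylated. A smaller set, Sfmbt2, Jade1, Gab1, Smoc1 and Slc38a4 among the genes here, depends in the preimplantation embryo on histone H3 lysine 27 trimethylation inherited from the egg. Many imprinted genes act on fetal and placental growth: paternally expressed genes often promote it and maternally expressed genes such as Cdkn1c, Phlda2, Grb10 and Igf2r often restrain it.

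Promoter sequence is shown for 4 genes: Meg3, Rian and Nap1l5, which had 0 or few counts in some groups and were called in others, and Peg3, which shares a motif with Meg3. Each line gives the 250 bases before the annotated start, 5′ to 3′ on the gene's strand, from RefSeq on GRCm38.p6. They lie at chr12:109540746-109540995 (plus strand), chr12:109603695-109603944 (plus strand), chr6:58907127-58907376 (minus strand) and chr7:6730420-6730669 (minus strand). Capitals mark the cyclic AMP response element TGACGTCA and, on either strand, the hexamer bound by ZFP57, TGCCGC.
Meg3: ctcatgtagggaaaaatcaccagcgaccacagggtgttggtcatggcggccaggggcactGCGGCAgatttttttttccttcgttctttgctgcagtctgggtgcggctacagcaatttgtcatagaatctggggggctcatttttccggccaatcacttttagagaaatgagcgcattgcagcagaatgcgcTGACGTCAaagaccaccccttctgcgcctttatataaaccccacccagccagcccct
Rian: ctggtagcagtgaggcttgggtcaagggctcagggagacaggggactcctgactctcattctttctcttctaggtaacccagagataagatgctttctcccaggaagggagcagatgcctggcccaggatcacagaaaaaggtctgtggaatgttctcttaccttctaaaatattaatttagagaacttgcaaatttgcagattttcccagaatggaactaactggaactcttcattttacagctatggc
Nap1l5: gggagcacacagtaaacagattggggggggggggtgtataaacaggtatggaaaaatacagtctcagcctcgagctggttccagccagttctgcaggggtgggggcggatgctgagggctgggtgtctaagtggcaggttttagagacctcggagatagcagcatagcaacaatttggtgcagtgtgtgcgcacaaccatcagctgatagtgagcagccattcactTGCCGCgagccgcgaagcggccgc
Peg3: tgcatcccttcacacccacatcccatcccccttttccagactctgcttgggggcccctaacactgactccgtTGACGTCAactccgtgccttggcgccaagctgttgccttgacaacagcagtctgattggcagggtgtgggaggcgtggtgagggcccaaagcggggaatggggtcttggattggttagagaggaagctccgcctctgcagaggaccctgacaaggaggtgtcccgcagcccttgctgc

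The Meg3 window held both motifs, with TGACGTCA 57 bases before the start. The Rian window, in the same locus, held neither and had 0 CpG dinucleotides. In the Peg3 window TGACGTCA lay 178 bases before the start, and the same 8 bases fall in the window of Usp29, which is transcribed the other way. RefSeq windows of 300 bases (250 before the start and 50 after) were matched for 33 of the 40 genes, 54 windows in all. TGACGTCA, on either strand, was in 3 of the 54 (5.56%) and in 1.79% of 32851 windows over all genes. TGCCGC, on either strand, was in 11 of the 54 (20.4%) and in 11.6% of all windows. Windows that overlap can hold the same site, as Peg3 and Usp29 do for TGACGTCA and the overlapping Mest windows do for TGCCGC. By gene, TGCCGC was in 10 of 33 imprinted genes and in 3527 of 27025 genes with a window. The motifs do not overlap each other, and a match is a description of letters, not of binding. The median window had 15 CpG dinucleotides against 7 over all genes.

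Library totals ranged from 7557591 to 11988857 counts. Of 10 markers of morula blastomeres (such as Pou5f1, Cdh1 and Krt8) all were detected in every library, except that Cdx2 was at 0 in all A485 libraries and in TSA 2. The test called 8 of the 10 lower with each of SAHA, A485, siP300 and siComb and 10 of 10 with TSA, and their sum was 3060.0 to 3840.0 CPM (counts per 1000000 counts of the library, scaled for library composition) with Vehicle and 635 to 819 with TSA. The sum was 1230 to 1280 CPM with SAHA and 1910 to 2970 with A485, where Krt8 and Krt18 were not called. In the siRNA family it was 1810 to 2260 with siControl and 1100 to 1380 with each of siP300 and siComb. The targeted gene Ep300 read 24.1, 24.9 and 30.7 CPM in the 3 siControl libraries and 17.9, 12.2 and 28.9 with siP300 (log2 -0.43 ± 0.29, edgeR adjusted p = 0.259), so the ranges overlapped and the difference did not pass the test. Kat6a with siKat6a (log2 -0.46 ± 0.20, edgeR adjusted p = 1.00) and Kat6b with siKat6b (log2 -0.56 ± 0.27, edgeR adjusted p = 0.496) did not pass either. With siComb, Kat6a (log2 -0.64 ± 0.20, edgeR adjusted p = 0.0220) and Kat6b (log2 -1.03 ± 0.28, edgeR adjusted p = 0.00815) were lower and Ep300 was not (log2 -0.15 ± 0.29, edgeR adjusted p = 0.722). The siRNA groups are therefore called here by their labels. The mitochondrial share of counts was 1.94 to 2.45% with siControl, 4.94 to 6.99% with siP300 and 4.86 to 5.41% with siComb. It was 0.997 to 1.20% with Vehicle, 1.61 to 2.16% with SAHA, 2.36 to 2.62% with A485 and 2.51 to 3.57% with TSA. The summed blood and immune markers were 10.8 to 13.6 CPM with siControl, 56.4 to 171 with siP300 and 95.7 to 146 with siComb, and 15.6 to 19.7 with Vehicle, 23.5 to 25.2 with SAHA, 27.5 to 59.3 with A485 and 40.7 to 65.2 with TSA. Of these 8 markers Hba-a1 and Cd68 were called higher with siP300, siComb, A485 and TSA, Hba-a1 alone with SAHA (4.73 on the log2 scale), and Spi1 lower with A485 (-1.28) and TSA (-1.56), while Hbb-bs was at 0 in every library and Ptprc at 0 in all siP300 libraries. The summed cumulus and granulosa markers were 1.02 to 1.69 CPM with siControl, 9.50 to 15.9 with siP300 and 7.90 to 11.6 with siComb. The summed oviduct and stroma markers were 11.5 to 18.4 CPM with Vehicle, 2.73 to 5.95 with SAHA, 0 to 1.72 with A485 and 4.66 to 6.71 with TSA, and 8.74 to 15.6 with siControl, 4.77 to 11.3 with siP300 and 7.36 to 12.7 with siComb. Transcripts of the MERVL retrotransposon stood apart within their group in 5 libraries, at 869 CPM in siP300 2, 960.1 in siKat6b 1, 929 in siKat6b 3, 934 in siComb 2 and 247 in Vehicle 3, and every SAHA (2091 to 4722 CPM) and TSA (8874 to 10080.0 CPM) library was higher than these. Without the first 4, the counts of called imprinted genes given below were 22 in place of 21 for siP300 and 22 in place of 22 for siComb. Without Vehicle 3 they were 7 in place of 10 for SAHA, 17 in place of 16 for A485 and 14 in place of 14 for TSA. The marker sums and mitochondrial shares moved with the same groups as many of the imprinted genes below, and their part in the results was not tested.

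Imprinted genes rose more often than they fell after siP300 and siComb, and moved both ways after the inhibitors. Of the 40 genes, 32 passed the filter on low counts among the inhibitor libraries and 35 among the siRNA libraries, and 5 (Zim1, Magel2, Mkrn3, H19 and Igf2) passed in neither. With siP300, 18 of 35 tested genes were higher than siControl and 3 were lower at an adjusted p below 0.05 (35.4% of all tested genes were called, 19.7% higher and 15.7% lower). With siComb, 20 were higher and 2 lower (36.7% of all genes, 19.6% higher and 17.1% lower). Of the genes called higher, Nap1l5, Dlk1 and Rtl1 reached the filter only through the siP300 and siComb libraries where they were high, which leaves 15 and 17 others. These comparisons share the 3 siControl libraries. The calls are from edgeR's quasi-likelihood test, adjusted over all genes of the comparison.

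Against Vehicle, SAHA gave 5 higher and 5 lower of 32 (34.2% of all genes called, 20.2% higher and 14% lower), A485 gave 11 and 5 (45.5%, 21.4% and 24.2%), and TSA gave 8 and 6 (58.1%, 31.6% and 26.6%). All 3 comparisons share the Vehicle libraries. Nnat and Ndn, and for SAHA and TSA also Cdkn1c, reached the filter only through the groups in which they were called higher, which leaves 2, 9 and 5 others higher with SAHA, A485 and TSA. Of the imprinted genes tested, 31.2% were called with SAHA, 50% with A485 and 43.8% with TSA, near or below the share of all genes, against 60% with siP300 and 62.9% with siComb. These shares, and the medians that follow, still include the genes that reached the filter only through groups where they were high. In the siRNA family these were Nap1l5, Dlk1 and Rtl1, so the siP300 and siComb values are in part built in by the filter. The median log2 fold change of the imprinted genes was 0.95 (0.12 over all genes tested) with siP300 and 1.06 (0.09 over all genes tested) with siComb. It was -0.20 (0.06 over all genes tested) with SAHA, 0.14 (-0.06 over all genes tested) with A485 and 0.20 (0.08 over all genes tested) with TSA. The libraries of the groups compared did not overlap for 22 imprinted genes with siP300 (48% of all genes), 25 with siComb (51.5%), 15 with SAHA (54.2%), 17 with A485 (52.7%) and 22 with TSA (68%). By the allele named as expressed in textbooks, 9 of 12 maternally expressed genes tested were higher with siP300 and 9 of 12 with siComb, none lower. Of the paternally expressed genes 9 of 22 were higher and 3 lower with siP300, and 11 were higher and 2 lower with siComb. Over all genes, 19.7% were higher and 15.7% lower with siP300, and 19.6% and 17.1% with siComb. Of the maternally expressed genes called higher, Meg3, Rian and Mirg share a locus, as do Cdkn1c, Phlda2, Slc22a18 and Cd81. The paternally expressed genes called higher include Nap1l5, Dlk1 and Rtl1, which reached the filter only through these groups. A difference between the parental classes was not tested.

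**Figure D1:**
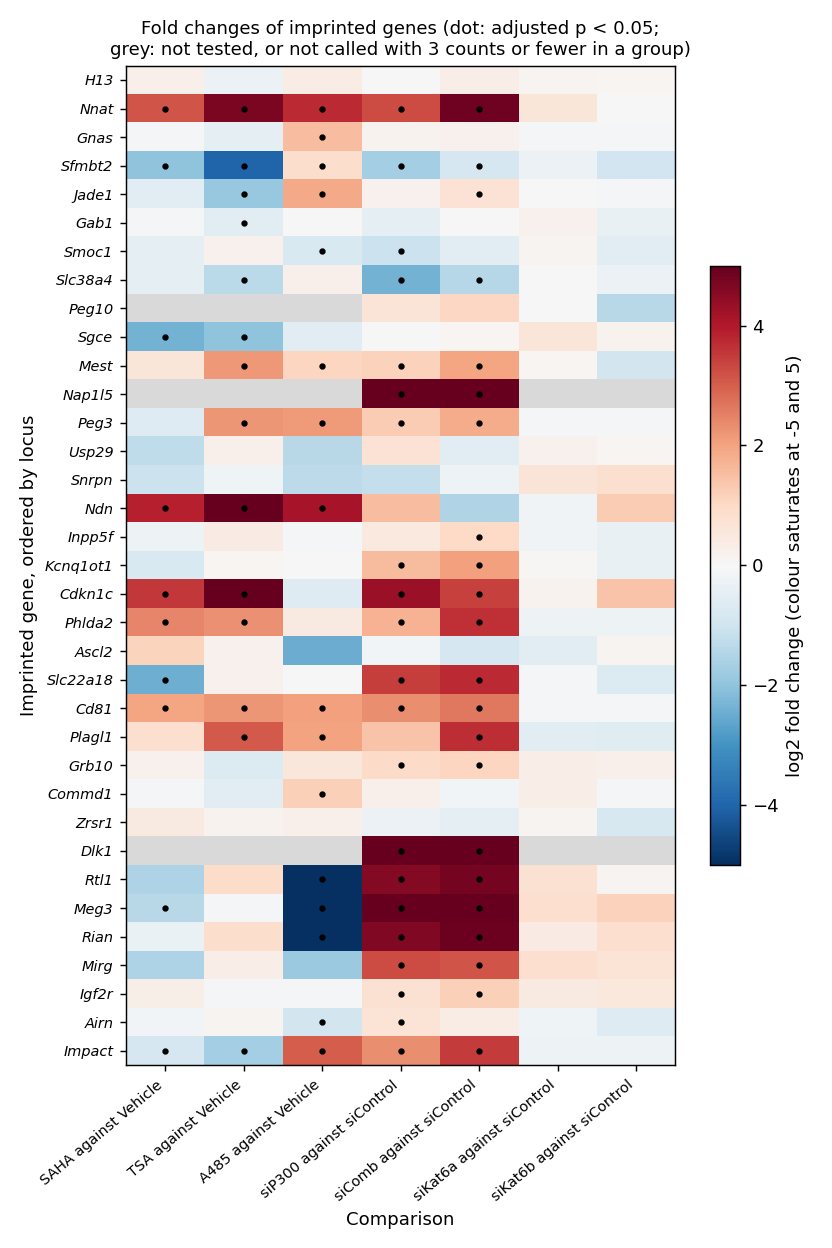
Fold changes (log2, colour, saturating at 5 in either direction) of the 35 imprinted genes tested in either family, one row each, in 7 comparisons with Vehicle or siControl, one column each. A dot marks an adjusted p below 0.05 and grey a gene that was not tested or, where it was not called, had 3 counts or fewer in a group; the siP300 and siComb columns hold 18 and 20 dotted genes that were higher, and the siKat6a and siKat6b columns hold no dot.

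Levels differed widely between these genes in the control groups. Per kilobase of exon, Slc38a4, an amino acid transporter, was highest with Vehicle (34.7 ± 2.36 CPM per kb, SD, n = 3), ahead of H13, which encodes signal peptide peptidase (18.1 ± 0.750), Gab1 (11.5 ± 1.21), Cd81 (8.24 ± 3.55) and Impact (7.74 ± 2.38). Cd81 and Impact did not differ beyond their spread. With siControl, Phlda2 (21.9 ± 4.45) led, followed by Cd81 (12.4 ± 3.64), Slc38a4 (12.4 ± 0.917), Gnas (11.5 ± 0.770) and H13 (10.7 ± 1.44). Mkrn3 and Igf2 had 0 counts in every library. Exons of Igf2 overlap those of Gm49394 on the same strand. How reads shared by 2 genes were counted is not stated, so the 0 for Igf2 may not mean absent RNA. The families were normalized separately, and no test was made across them.

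The Dlk1-Meg3 locus on chromosome 12 (Meg3 at chr12:109541001-109571726 and Rian at chr12:109603940-109661716, GRCm38, both on the plus strand) held genes that were called higher with siP300 and siComb, and 3 that were called lower with A485. Meg3, the maternally expressed long noncoding RNA that begins the cluster, read 4.10, 4.76 and 5.09 CPM in the siControl libraries, 294, 47.1 and 171 with siP300 and 225, 129.5 and 97.2 with siComb. No library of either treated group came near the controls. Meg3 rose with siP300 (log2 5.19 ± 0.60, edgeR adjusted p = 1.30e-05) and with siComb (log2 5.01 ± 0.60, edgeR adjusted p = 1.13e-05).

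Rian, the host of a small nucleolar RNA cluster downstream of Meg3, read 1.08, 1.48 and 1.32 CPM with siControl, 48.6, 21.1 and 27.3 with siP300 and 49.5, 45.4 and 21 with siComb (log2 4.63 ± 0.67, edgeR adjusted p = 8.93e-05 for siP300 and log2 4.89 ± 0.67, adjusted p = 4.28e-05 for siComb). Rtl1, a paternally expressed gene derived from a retrotransposon and needed in the placenta, read 0.432, 0.845 and 0.611 with siControl, 24.1, 6.95 and 15.3 with siP300 and 30.9, 12.8 and 9.24 with siComb (log2 4.59 ± 0.71, edgeR adjusted p = 1.52e-04 and log2 4.78 ± 0.71, adjusted p = 8.51e-05, respectively). Rtl1 lies opposite several microRNA genes, and the strand setting of the counting is not given in the sources used here. Mirg, a microRNA host gene at the far end, also rose (3.27 and 3.15 on the log2 scale). Dlk1, which encodes a Notch-like ligand, had 0 counts in all siControl libraries and was at least 13.5-fold higher with siP300 and at least 10.8-fold higher with siComb, taking 3 counts per group as the least detectable (edgeR adjusted p = 0.00957 and 0.0115). Dlk1 and Rtl1 reached the filter on low counts only through the siP300 and siComb libraries, where they were high, so their calls add no support for the locus (with no filter on low counts, edgeR adjusted p = 0.00202 and 0.00308 for Dlk1, respectively). The other 3 genes, Meg3, Rian and Mirg, passed it without those libraries and were called higher in both groups.

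Within siP300, library 1 was the highest and library 2 the lowest for all 5 genes of the locus. Without siP300 1, the fitted log2 changes with siP300 were 4.54 for Meg3, 2.37 for Mirg and 6.07 for Dlk1. Without siControl 1, Mirg changed by 4.15 with siP300 and 4.04 with siComb. Without siComb 1, Rtl1 changed by 4.10, and without siComb 2, the fitted change of Dlk1 was 5.91. Both Dlk1 values are fits against 0 siControl counts, so their size is not a measured fold. The 3-count bounds with all libraries were 3.75 with siP300 and 3.44 with siComb on the log2 scale. Every one of these calls held.

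With A485, Meg3, Rian and Rtl1 of this locus were lower. Mirg was not called with A485 (log2 -1.86 ± 1.40, edgeR adjusted p = 0.298), and Dlk1 was below the filter on low counts in the inhibitor family. The families were not tested against each other. Meg3 read 6.10, 6.35 and 7.62 CPM with Vehicle and 0.158, 0 and 0 with A485, a total of 2 counts in the A485 group, and was 118-fold lower (95% counting interval 32.2 to 979; edgeR adjusted p = 3.30e-06). Rian (3.05, 1.81 and 3.28 CPM with Vehicle) and Rtl1 (0.739, 1.09 and 1.25) had 0 counts in all 3 A485 libraries. Rian was at least 31.8-fold and Rtl1 at least 12.1-fold lower by the same 3-count limit (edgeR adjusted p = 3.24e-05 and 4.75e-04). The intervals and floors cover counting error only and assume that reads were counted singly. Without A485 1, the only A485 library with Meg3 counts, the fitted log2 change was -9.0.

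With SAHA, Meg3 read 2.96, 2.55 and 2.09 CPM, below all Vehicle libraries (log2 -1.40 ± 0.45, edgeR adjusted p = 0.0266), but the call ended when any 1 of the 6 libraries was left out (edgeR adjusted p = 0.0518 to 0.0965). With TSA, Meg3 (7.94, 4.20 and 7.25 CPM), Rian (6.16, 3.67 and 5.05) and Rtl1 (1.92, 1.84 and 2.07) were not called against Vehicle (log2 -0.05 ± 0.43, edgeR adjusted p = 0.931 for Meg3). TSA and Vehicle libraries overlapped for Meg3 and lay apart for Rian and Rtl1.

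**Figure D2:**
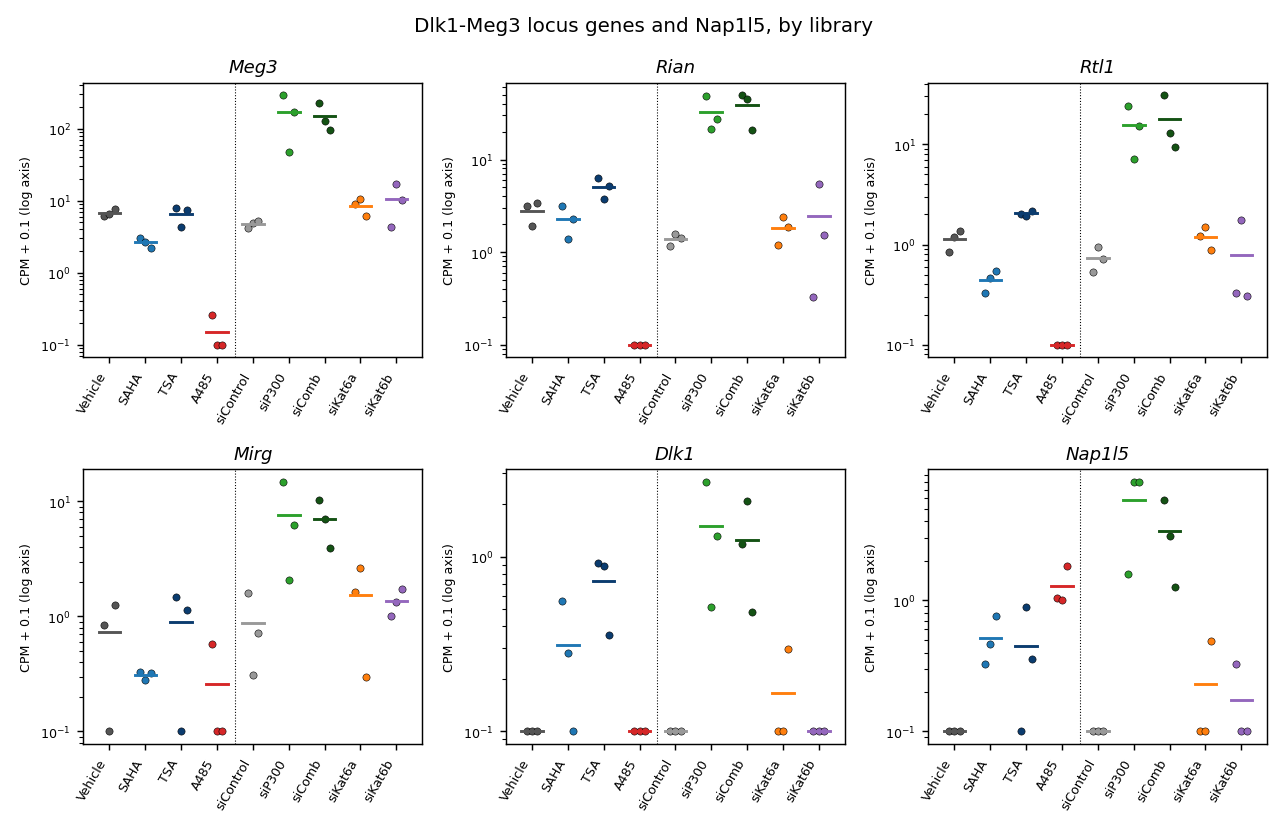
Levels of Meg3, Rian, Rtl1, Mirg and Dlk1 of the Dlk1-Meg3 locus and of Nap1l5, as CPM plus 0.1 on a log axis, in each of the 9 groups. Points are single libraries and bars group means; A485 points of Rian and Rtl1 sit at 0 counts, and siP300 and siComb points of all 6 genes lie above those of siControl.

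Nap1l5 (chr6:58905233-58907076, minus strand), a paternally expressed gene of the nucleosome assembly protein family, lies inside Herc3. Like Dlk1, it had 0 counts in all siControl libraries. It read 1.48, 7.89 and 7.92 CPM with siP300 and 5.74, 2.98 and 1.16 with siComb. Nap1l5 was lowest in siP300 1, the siP300 library in which Dlk1 was highest. It was at least 56.5-fold higher with siP300 and at least 31.9-fold higher with siComb (edgeR adjusted p = 7.64e-04 and 0.00142). It too reached the filter only through these groups, so a difference was built into its being tested (with no filter, edgeR adjusted p = 2.11e-10 and 1.28e-08). Without siComb 1 the log2 change with siComb, fitted against 0 siControl counts, was 7.38. The host Herc3 was called higher with siP300 (1.22 on the log2 scale).

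In the Kcnq1ot1 domain on distal chromosome 7, 4 of the 5 maternally expressed genes among the 40 were called higher with both siP300 and siComb, and Ascl2 with neither. Of the second list described further on, Nap1l4 of the same domain was called with neither and was lower with SAHA (-0.54 on the log2 scale), A485 (-1.43) and TSA (-1.05), and Tssc4 was lower with A485 (-1.48) and TSA (-1.05). Tnfrsf23 and Dhcr7, also of that list and distal chromosome 7, were called higher with SAHA (1.75 and 1.38) and TSA (3.21 and 2.24). With A485 Tnfrsf23 was not called and Dhcr7 was lower (-0.95). Tnfrsf23 averaged 11.9 CPM with siP300 and 10.3 with siComb against 1.98 with siControl. Cdkn1c (chr7:143458339-143461050, minus strand) encodes the cyclin-dependent kinase inhibitor p57. It read 1.94, 4.23 and 2.85 CPM with siControl, 61.4, 52.5 and 65 with siP300 and 36.1, 37 and 23.5 with siComb (log2 4.30 ± 0.32, edgeR adjusted p = 3.73e-07 for siP300 and log2 3.41 ± 0.31, adjusted p = 8.24e-07 for siComb). Against Vehicle (1.48, 0.363 and 0.579 CPM), it read 7.29, 8.75 and 12.3 with SAHA and 75, 35.4 and 41.9 with TSA (log2 3.53 ± 0.68, edgeR adjusted p = 0.00124 and log2 5.95 ± 0.70, adjusted p = 7.29e-06, respectively). No library of these 4 treated groups overlapped its control. Cdkn1c reached the filter on low counts in the inhibitor family only through the SAHA and TSA libraries, so a difference was built into those 2 tests. With A485 it read 0.158, 1.45 and 0 and was not called (log2 -0.63 ± 0.86, edgeR adjusted p = 0.580), but without A485 2 it was called lower (log2 -3.11, edgeR adjusted p = 0.0253). Vehicle 1 held most of the control counts, and without it the log2 changes were 4.30 with SAHA and 6.71 with TSA.

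Phlda2, a maternally expressed gene that restrains placental growth, was called in the same 4 groups. It read 9.06, 5.62 and 6.94 CPM with Vehicle, 32.8, 31 and 52.6 with SAHA and 24.4, 38.8 and 41.4 with TSA (log2 2.43 ± 0.35, edgeR adjusted p = 1.46e-04 and log2 2.27 ± 0.35, adjusted p = 8.63e-05, respectively). In the siRNA family it read 19.4, 29.4 and 24.9 with siControl, 49.3, 121 and 74 with siP300 and 295, 338 and 283 with siComb (log2 1.73 ± 0.27, edgeR adjusted p = 1.85e-04 and log2 3.63 ± 0.29, adjusted p = 2.89e-07, respectively). With siComb the lowest library was above the highest of siP300.

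Cd81, which encodes a tetraspanin and lies at the edge of the domain, rose in 5 groups. It read 35.1, 15.4 and 20.6 CPM with Vehicle, 68.8, 123 and 91 with SAHA, 74.3, 113 and 105 with A485 and 114, 67.4 and 146 with TSA, with log2 changes of 1.99, 2.04 and 2.20 (edgeR adjusted p = 4.68e-04, 2.17e-04 and 7.87e-05). With siControl it read 28, 31.5 and 47.7, with siP300 177, 154 and 210.2 and with siComb 266, 235 and 172 (log2 2.34 ± 0.23, edgeR adjusted p = 3.49e-06 and log2 2.65 ± 0.23, adjusted p = 6.36e-07, respectively). None of the 5 treated groups overlapped its control. Cd81 is also expressed widely outside the embryo, including in the blood and immune cells whose markers are given above. Any part of such cells in the Cd81 values was not tested.

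Slc22a18, a transporter of the organic cation family, read 1.51, 1.06 and 1.83 CPM with siControl, 16.1, 11.8 and 21.3 with siP300 and 24.6, 16.9 and 17.9 with siComb (log2 3.47 ± 0.45, edgeR adjusted p = 3.80e-05 and log2 3.74 ± 0.45, adjusted p = 1.35e-05, respectively). It went the other way with SAHA, at 0.456, 0.547 and 0.441 against 3.70, 0.907 and 3.47 with Vehicle (log2 -2.45 ± 0.77, edgeR adjusted p = 0.0240), and that call ended without any 1 of Vehicle 1, Vehicle 3 or the SAHA libraries (edgeR adjusted p = 0.0583 to 0.0753). Ascl2, a trophoblast transcription factor, was not called against either control.

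Kcnq1ot1 (chr7:143203458-143296549, minus strand) is the paternally expressed noncoding RNA that silences the domain on its own chromosome. It read 19, 20.9 and 23 CPM with siControl, 47, 41 and 98.4 with siP300 and 118, 69 and 70.6 with siComb (log2 1.57 ± 0.30, edgeR adjusted p = 9.54e-04 and log2 2.04 ± 0.31, adjusted p = 9.71e-05, respectively). Within the siRNA family alone, Kcnq1ot1 was called higher in the same groups as Cdkn1c, Phlda2, Slc22a18 and Cd81. It was called with none of SAHA, A485 and TSA (log2 -0.75 ± 0.31, edgeR adjusted p = 0.0718 for SAHA). Kcnq1ot1 lies inside Kcnq1 on the opposite strand, and Kcnq1 rose by a similar amount with siP300 (1.56 on the log2 scale) and siComb (2.01). Without strand the reads of the pair cannot be told apart.

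**Figure D3:**
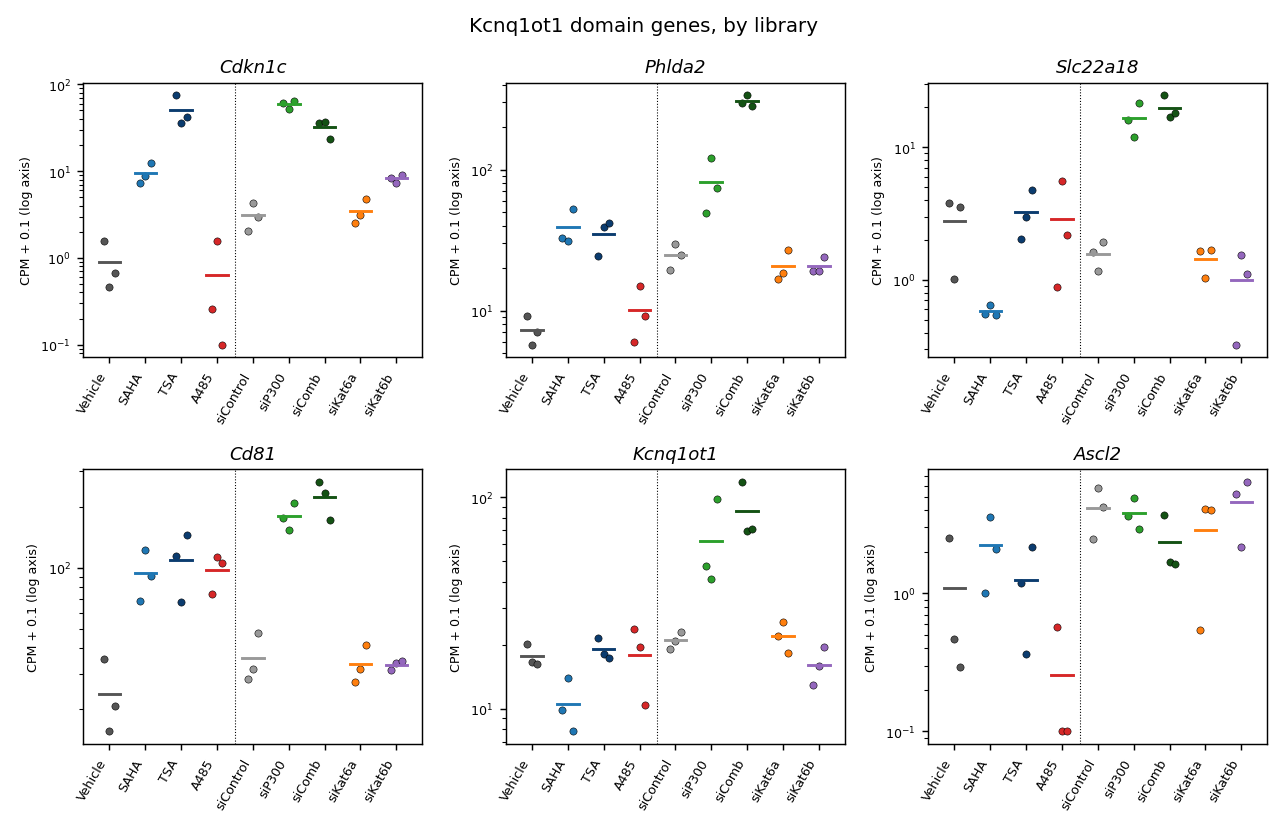
Levels of Cdkn1c, Phlda2, Slc22a18, Cd81, Kcnq1ot1 and Ascl2 as CPM plus 0.1 on a log axis in each of the 9 groups. Points are single libraries and bars group means; Cdkn1c lies above its control in the SAHA, TSA, siP300 and siComb libraries and Cd81 also in the A485 libraries, whereas Ascl2 shows no called change.

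The 5 genes that depend on H3 lysine 27 methylation did not move as one group. Sfmbt2 (chr2:10370510-10595253, plus strand), which encodes a Polycomb protein needed in the trophoblast, read 72.9, 59.1 and 57.3 CPM with Vehicle, 19.3, 18.8 and 9.47 with SAHA, 2.74, 3.15 and 5.70 with TSA and 118, 126 and 107 with A485. It fell with SAHA (log2 -1.99 ± 0.27, edgeR adjusted p = 8.57e-05) and TSA (log2 -4.02 ± 0.31, edgeR adjusted p = 1.85e-07) and rose with A485 (log2 0.89 ± 0.26, edgeR adjusted p = 0.0124). In the siRNA family it read 49.4, 51.4 and 53.1 with siControl, 14.4, 12.9 and 19.6 with siP300 and 23.7, 31.2 and 32.2 with siComb (log2 -1.71 ± 0.24, edgeR adjusted p = 7.58e-05 and log2 -0.82 ± 0.23, adjusted p = 0.0118, respectively). None of these groups overlapped its control. The siComb call ended without siComb 1 (edgeR adjusted p = 0.0588) and with library size as the only scaling (0.101).

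Slc38a4 read 159, 139 and 145 CPM with Vehicle and 68.2, 46.7 and 61.7 with TSA (log2 -1.33 ± 0.27, edgeR adjusted p = 8.77e-04). It read 55.5, 48.3 and 54.6 with siControl, 11.3, 8.93 and 10.5 with siP300 and 17.9, 17.7 and 22.6 with siComb (log2 -2.36 ± 0.21, edgeR adjusted p = 1.15e-06 and log2 -1.44 ± 0.20, adjusted p = 4.50e-05, respectively), with no overlap. With SAHA (89.2, 128 and 103) and A485 (122, 276 and 131) it was not called.

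Jade1, which encodes a subunit of the KAT7 acetyltransferase complex, read 37.9, 35.4 and 34.3 CPM with Vehicle, 158, 125 and 114 with A485 and 7.94, 11.3 and 9.32 with TSA. It rose with A485 (log2 1.88 ± 0.21, edgeR adjusted p = 5.89e-06) and fell with TSA (log2 -1.91 ± 0.22, edgeR adjusted p = 5.52e-06). With siComb it read 90.8, 95.3 and 109 against 58.5, 56 and 64.6 with siControl (log2 0.72 ± 0.18, edgeR adjusted p = 0.00442), and with siP300 63.8, 54 and 89.1, which overlapped the controls and was not called.

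Smoc1, a secreted calcium-binding matrix protein, read 11.2, 11.7 and 15.3 CPM with siControl and 4.06, 6.02 and 7.78 with siP300 (log2 -1.09 ± 0.30, edgeR adjusted p = 0.0109), a call that ended without siControl 3 (adjusted p = 0.0528) and with library size as the only scaling (0.0751, both edgeR). With A485 it read 9.0, 5.80 and 6.03 against 12.7, 12.7 and 10.03 with Vehicle (log2 -0.76 ± 0.28, edgeR adjusted p = 0.0384). Leaving out Vehicle 1, Vehicle 2, A485 2 or A485 3 ended that call (edgeR adjusted p = 0.101 to 0.114), as did library size alone (0.0685) and no filter on low counts (0.154). Gab1, an adaptor of receptor tyrosine kinases, read 51.2, 61.1 and 62.5 with Vehicle and 38.1, 41.4 and 39.9 with TSA (log2 -0.55 ± 0.21, edgeR adjusted p = 0.0346). Its call ended without Vehicle 2, Vehicle 3 or any 1 TSA library (edgeR adjusted p = 0.0706 to 0.112), and with DESeq2's size factors in edgeR (0.117).

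Impact, a paternally expressed gene whose product restrains the translation-control kinase GCN2, moved in 5 groups, upward in 3 and downward in 2. It read 34.6, 30.8 and 53.6 CPM with Vehicle, 19.1, 26.4 and 20.9 with SAHA, 10.4, 6.82 and 19.7 with TSA and 251, 349 and 361 with A485. It was higher with A485 (log2 3.01 ± 0.32, edgeR adjusted p = 4.79e-06) and lower with TSA (log2 -1.69 ± 0.32, edgeR adjusted p = 5.01e-04). The lower call with SAHA (log2 -0.84 ± 0.31, edgeR adjusted p = 0.0497) ended without any 1 of Vehicle 1, Vehicle 3 and the 3 SAHA libraries (edgeR adjusted p = 0.0561 to 0.212) and with DESeq2's size factors (0.0619). With siControl it read 32.1, 36.1 and 35.9, with siP300 139.9, 189.7 and 190.3 and with siComb 455, 398 and 318 (log2 2.32 ± 0.20, edgeR adjusted p = 7.34e-07 and log2 3.49 ± 0.20, adjusted p = 2.85e-08, respectively), with no overlap between any pair of the 3 groups.

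**Figure D4:**
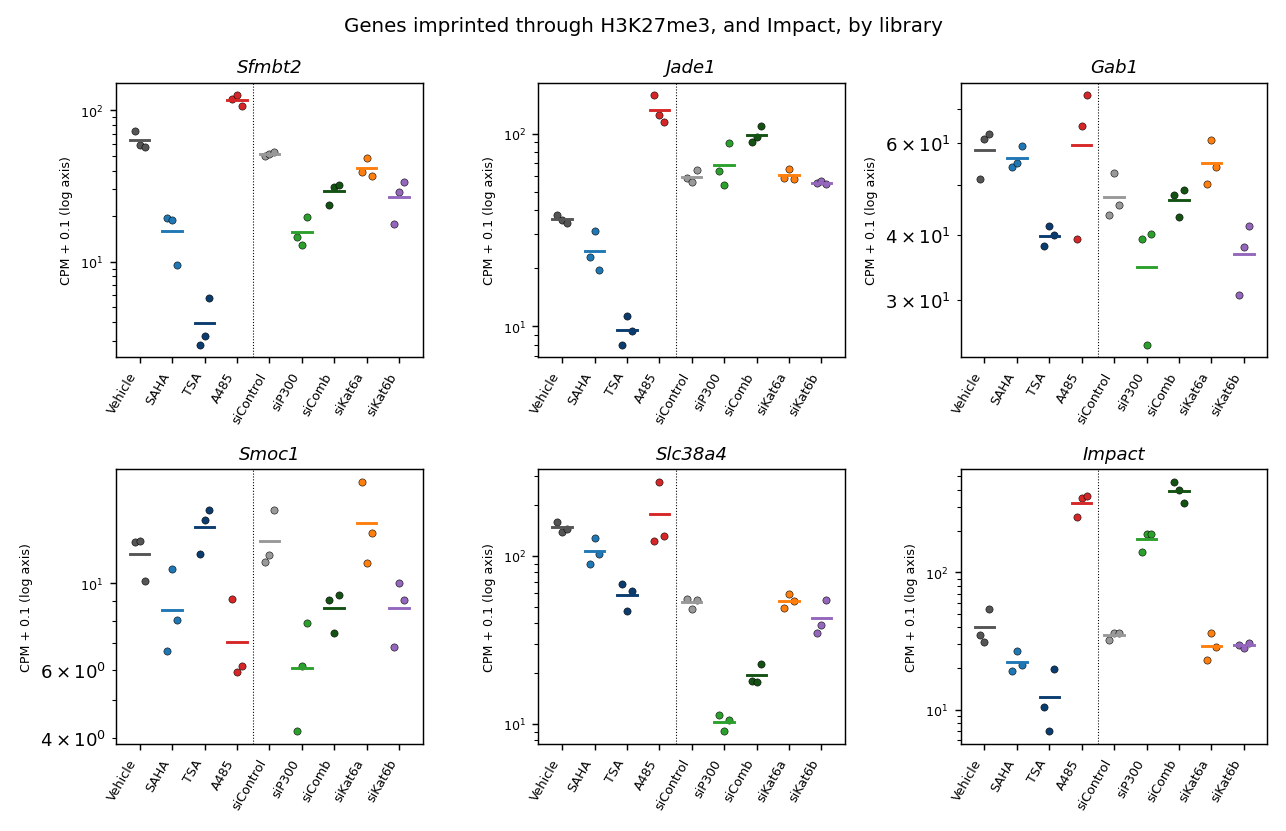
Levels of Sfmbt2, Jade1, Gab1, Smoc1, Slc38a4 and Impact as CPM plus 0.1 on a log axis in each of the 9 groups. Points are single libraries and bars group means; Sfmbt2 is lowest in the TSA libraries and highest in the A485 libraries, and Impact lies above its control in the A485, siP300 and siComb libraries.

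Nnat, a small membrane protein of the endoplasmic reticulum expressed from the paternal allele, was higher in 5 groups. It read 0.924, 0.726 and 1.16 CPM with Vehicle, 6.84, 8.56 and 9.91 with SAHA, 18.5, 9.06 and 10.3 with A485 and 29.6, 21.2 and 22.5 with TSA, with log2 changes of 3.16, 3.74 and 4.69 (edgeR adjusted p = 2.16e-05, 2.25e-06 and 2.29e-07). It read 1.08, 1.06 and 2.44 with siControl, 7.01, 18.9 and 18.9 with siP300 and 59.2, 36.2 and 38.7 with siComb (log2 3.28 ± 0.45, edgeR adjusted p = 6.77e-05 and log2 4.86 ± 0.47, adjusted p = 1.67e-06, respectively). Treated and control libraries did not overlap in any of the 5. In the inhibitor family Nnat reached the filter on low counts only through the SAHA, A485 and TSA libraries, so a difference was built into its being tested there. In the siRNA family it passed without the siP300 and siComb libraries. Nnat lies inside Blcap, which was also called higher with TSA (0.72 on the log2 scale), siP300 (1.26) and siComb (2.06).

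Mest, a paternally expressed hydrolase-like protein that promotes growth, read 23.7, 15.1 and 33.4 CPM with Vehicle, 34.4, 60.7 and 57 with A485 and 140.5, 89.7 and 95.8 with TSA (log2 1.08 ± 0.29, edgeR adjusted p = 0.00777 and log2 2.18 ± 0.30, adjusted p = 2.92e-05, respectively). It read 24.2, 18.2 and 19.4 with siControl, 32.5, 31.8 and 72.7 with siP300 and 74.4, 78.8 and 92.1 with siComb (log2 1.15 ± 0.28, edgeR adjusted p = 0.00454 and log2 1.99 ± 0.28, adjusted p = 5.93e-05, respectively). Its exons overlap Copg2 on the other strand, which was called higher with SAHA (1.62 on the log2 scale) and TSA (3.04).

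Peg3, a paternally expressed zinc finger gene, read 2.03, 5.99 and 3.09 CPM with Vehicle, 19.4, 14 and 15.8 with A485 and 16.4, 15 and 20.7 with TSA (log2 2.14 ± 0.36, edgeR adjusted p = 2.68e-04 and log2 2.22 ± 0.37, adjusted p = 1.39e-04, respectively), with no overlap. It read 4.53, 6.13 and 6.52 with siControl and 26.4, 16.9 and 18.9 with siComb (log2 1.85 ± 0.39, edgeR adjusted p = 0.00168). With siP300 it read 6.09, 13.7 and 21.3, which overlapped siControl, and the call (log2 1.26 ± 0.39, edgeR adjusted p = 0.0196) ended without siControl 1, siControl 2 or siP300 3 (edgeR adjusted p = 0.0508 to 0.148). Usp29, transcribed from the same promoter region the other way, was not called in any comparison with a control.

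Plagl1, a paternally expressed zinc finger transcription factor that slows the cell cycle, read 2.03, 0.907 and 1.35 CPM with Vehicle, 6.95, 9.24 and 1.38 with A485 and 11.2, 12.9 and 11.7 with TSA (log2 2.02 ± 0.55, edgeR adjusted p = 0.00840 and log2 3.05 ± 0.56, adjusted p = 3.81e-04, respectively). It read 4.75, 2.96 and 1.83 with siControl, 3.51, 6.02 and 16.2 with siP300 and 68, 28.3 and 27.7 with siComb. One A485 library lay within the Vehicle range. The siComb libraries were all higher than siControl (log2 3.70 ± 0.63, edgeR adjusted p = 2.99e-04). The siP300 libraries overlapped the controls (log2 1.44 ± 0.60, edgeR adjusted p = 0.0710), and that comparison passed without siP300 1 (0.0295, edgeR), with library size alone (0.0316), with no filter on low counts (9.39e-04) and with DESeq2 (0.0325).

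Grb10, a maternally expressed adaptor that damps insulin and insulin-like growth factor signalling, read 23, 29.5 and 32.8 CPM with siControl, 58.1, 39.96 and 66.3 with siP300 and 64.6, 62 and 51.1 with siComb (log2 0.95 ± 0.23, edgeR adjusted p = 0.00522 and log2 1.06 ± 0.23, adjusted p = 0.00219, respectively). It was not called against Vehicle. Igf2r, the maternally expressed receptor that clears insulin-like growth factor 2, read 43.5, 67.6 and 52.6 with siControl and 134, 98 and 138 with siComb (log2 1.18 ± 0.30, edgeR adjusted p = 0.00530). With siP300 it read 145, 69.2 and 65.9, overlapping siControl, and that call (log2 0.77 ± 0.29, edgeR adjusted p = 0.0488) ended without siControl 1, siControl 3 or siP300 1 (edgeR adjusted p = 0.123 to 0.385).

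Airn, the paternally expressed RNA transcribed across Igf2r from the other strand, moved in opposite ways in the families. It read 21.5, 14.8 and 13.5 CPM with Vehicle and 10.03, 9.97 and 6.03 with A485 (log2 -0.94 ± 0.28, edgeR adjusted p = 0.0131), and 17.9, 23 and 15 with siControl and 36.7, 24.1 and 29.7 with siP300 (log2 0.69 ± 0.24, edgeR adjusted p = 0.0319). The first call ended without Vehicle 1 or A485 3 (edgeR adjusted p = 0.0556 to 0.0749). The second ended without siControl 1, siControl 3, siP300 1 or siP300 3 (edgeR adjusted p = 0.0646 to 0.138) and with no filter on low counts (0.0670). Exons of the pair do not overlap in the annotation.

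**Figure D5:**
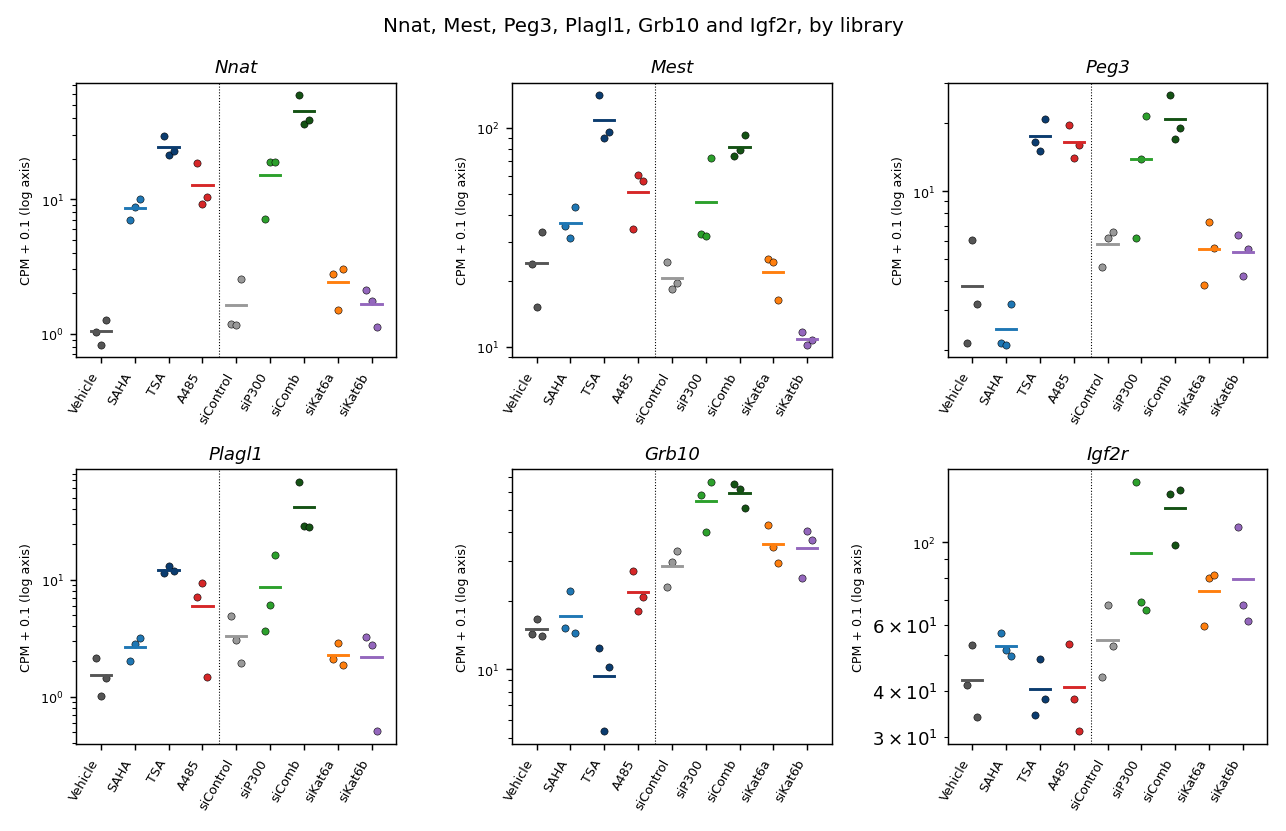
Levels of Nnat, Mest, Peg3, Plagl1, Grb10 and Igf2r as CPM plus 0.1 on a log axis in each of the 9 groups. Points are single libraries and bars group means; Nnat lies above its control in the SAHA, A485, TSA, siP300 and siComb libraries, and Plagl1 is highest with siComb.

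Among the remaining genes, Gnas, which encodes the stimulatory G protein alpha subunit and other products from several promoters, read 59.1, 71 and 59.4 CPM with Vehicle and 238, 167 and 152 with A485 (log2 1.56 ± 0.19, edgeR adjusted p = 1.86e-05). In the siRNA family it read 123, 139 and 125 with siControl and 199, 104 and 135 with siP300 and was not called. Commd1, a regulator of copper transport, read 12, 9.25 and 11.6 with Vehicle and 26.8, 18.9 and 30.2 with A485 (log2 1.21 ± 0.27, edgeR adjusted p = 0.00222). Its exons overlap those of Zrsr1 on the other strand, and Zrsr1 was not called in any comparison. Sgce, epsilon-sarcoglycan, read 2.03, 5.99 and 5.01 with Vehicle, 0.684, 0.547 and 1.32 with SAHA and 1.37, 0.787 and 1.04 with TSA (log2 -2.35 ± 0.59, edgeR adjusted p = 0.00698 and log2 -2.02 ± 0.58, adjusted p = 0.00878, respectively). Its neighbour Peg10, a retrotransposon-derived placental gene, was not called. Inpp5f, an inositol phosphatase, read 9.93, 12.7 and 15 with siControl and 22.5, 30.7 and 22.4 with siComb (log2 1.01 ± 0.27, edgeR adjusted p = 0.00754).

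In the Snrpn-Ndn region, Ndn, a growth-restraining gene of the MAGE family, had 2 counts in the Vehicle group. It reached the filter on low counts only through the SAHA, A485 and TSA libraries, so a difference was built into its being tested. It was 21.0-fold higher with A485 (95% counting interval 5.49 to 178; edgeR adjusted p = 0.0114) and 55.5-fold higher with TSA (interval 14.8 to 466; 0.00108). With SAHA the ratio was 16.8 (interval 4.25 to 145; 0.0223), the groups overlapped, and the call ended without Vehicle 2, Vehicle 3 or SAHA 1 (edgeR adjusted p = 0.0613 to 0.121). Without Vehicle 1, which held both control counts, the fitted log2 change was 6.45 with SAHA, 6.67 with A485 and 8.10 with TSA. How reads shared by Snrpn and Snurf, whose exons overlap on the same strand, were counted is not stated. Snrpn was not called in any comparison. Magel2, its neighbour in this region, had counts only in the 3 TSA libraries (1.37, 1.31 and 0.259 CPM), and H19 had counts in A485, TSA, siP300 and siComb libraries only, at most 2.19 CPM. Both fell below the filter on low counts.

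TSA and SAHA, both hydroxamates, were used at different doses (50 nM and 500 nM), so their values stand side by side without matching. In a direct test 9 genes were higher and 3 lower with TSA than with SAHA (21.8% of all genes called, 9.79% higher and 12% lower). The split was 7 higher and 7 lower with library size as the only scaling, 7 higher and 6 lower with no filter on low counts and 11 higher and 2 lower with DESeq2's size factors, so the excess of higher calls did not hold under the first and was 1 gene under the second. Cdkn1c (log2 2.42 ± 0.56, edgeR adjusted p = 0.00720), Nnat, Mest, Peg3 and Plagl1 were among those higher with TSA, and Sfmbt2 (log2 -2.03 ± 0.31, edgeR adjusted p = 5.91e-04), Jade1 and Slc38a4 were the 3 lower. Leaving out SAHA 2 reduced the count from 12 to 7. The groups did not overlap for 20 genes (45.5% of all genes). Some calls ended under an alternative. They were those of Slc38a4 without SAHA 2, SAHA 3, TSA 1, TSA 2 or TSA 3 and with DESeq2's size factors (edgeR adjusted p = 0.0545 to 0.132), Inpp5f without SAHA 1, SAHA 2, TSA 1, TSA 2 or TSA 3 and with library size alone or no filter on low counts (edgeR adjusted p = 0.0552 to 0.231) and Slc22a18 without SAHA 1, SAHA 2, SAHA 3 or TSA 3 (edgeR adjusted p = 0.0713 to 0.0860). The same held for Rtl1 without SAHA 1, SAHA 2, SAHA 3, TSA 1, TSA 2 or TSA 3 and with no filter on low counts (edgeR adjusted p = 0.0642 to 0.114) and Meg3 without SAHA 1, SAHA 2, SAHA 3, TSA 1 or TSA 3 and with library size alone, no filter on low counts or the replicate block (edgeR adjusted p = 0.0617 to 0.148).

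TSA against A485 gave 9 higher and 10 lower (63.5% of all genes called, 36.1% higher and 27.4% lower), and the split was 13 higher and 9 lower with DESeq2. Meg3, Rian, Rtl1 and Cdkn1c were higher with TSA, and Impact (log2 -4.70 ± 0.35, edgeR adjusted p = 8.98e-08), Sfmbt2 (log2 -4.91 ± 0.32, edgeR adjusted p = 2.68e-08), Jade1 (-3.80) and Gnas (-2.02) were lower. Without A485 2, the log2 difference of Cdkn1c was 9.05 in place of 6.58. The groups did not overlap for 21 genes (66.1% of all genes). Calls that ended were those of H13 without A485 2 (edgeR adjusted p = 0.0549) and Nnat without A485 2, A485 3 or TSA 1 (edgeR adjusted p = 0.0533 to 0.0607), and of Gab1 without A485 2, A485 3, TSA 1, TSA 2 or TSA 3 and with DESeq2's size factors or DESeq2 (edgeR or DESeq2 adjusted p = 0.0556 to 0.123) and Sgce without A485 2, A485 3, TSA 2 or TSA 3 and with DESeq2's size factors or the replicate block (edgeR adjusted p = 0.0509 to 0.121).

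Between siComb and siP300, 3 genes differed, all higher with siComb (0.798% of all genes called, 0.516% higher and 0.282% lower). Phlda2 was higher by 1.91 (edgeR adjusted p = 0.00582), Impact by 1.17 (0.0120) and Slc38a4 by 0.92 (0.0444). Slc38a4 was below siControl in both groups, so siComb lay closer to the control. Without siComb 1 the count was 1. The call ended for Slc38a4 without siP300 1, siP300 2, siP300 3, siComb 1, siComb 2 or siComb 3 and with library size alone or the replicate block (edgeR adjusted p = 0.0603 to 0.130) and for Impact without siComb 1 (edgeR adjusted p = 0.0534). The groups did not overlap for 12 genes (15.5% of all genes). The Dlk1-Meg3 genes were not called between these groups (Meg3: log2 -0.18 ± 0.48, edgeR adjusted p = 0.920).

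siKat6a and siKat6b gave no called imprinted gene. At an unadjusted p below 0.05, edgeR gave 0 of 35 genes for siKat6a (2.14% of all genes) and 5 of 35 for siKat6b (10.4% of all genes). After adjustment DESeq2 called 0 and 2. Over all genes, after adjustment, edgeR called 0% and 0.0209% (0.0104% higher and 0.0104% lower for siKat6b). Treated and control libraries did not overlap for 3 imprinted genes with siKat6a (9.9% of all genes) and 9 with siKat6b (17.1%). Meg3 read 8.83, 10.4 and 6.07 CPM with siKat6a and 4.27, 16.9 and 10.2 with siKat6b. Cdkn1c read 8.31, 7.22 and 8.93 with siKat6b, above all siControl libraries (log2 1.43 ± 0.31, edgeR adjusted p = 0.180). It passed with no filter on low counts (edgeR adjusted p = 5.07e-04), with DESeq2 (0.00477) and without siKat6b 2 (0.0468). Sfmbt2 read 17.5, 28.6 and 33.7 with siKat6b, also outside the siControl range (log2 -0.95 ± 0.24, edgeR adjusted p = 0.181).

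A second list held further imprinted genes outside the 40. With siP300 it gave 8 higher and 0 lower of 29 tested and with siComb 6 higher and 2 lower of 29, that is 27.6% and 27.6% called against 35.4% and 36.7% of all genes, so its share was below the background. Zdbf2, a paternally expressed zinc finger gene, rose with both (1.71 and 1.76 on the log2 scale), as did Gatm, an enzyme of creatine synthesis (4.05 and 4.30). Against Vehicle it gave 6 higher and 5 lower of 26 with SAHA, 4 higher and 7 lower of 26 with A485 and 7 higher and 8 lower of 26 with TSA (42.3%, 42.3% and 57.7% called, against 34.2%, 45.5% and 58.1% of all genes). The list of genes with H3 lysine 27-dependent imprinting in embryos, which does not include the 5 above, gave 1 higher and 5 lower of 12 with SAHA, 2 higher and 5 lower of 12 with A485, 2 higher and 7 lower of 12 with TSA, 2 higher and 4 lower of 12 with siP300 and 2 higher and 3 lower of 12 with siComb. Lower calls over all genes were 14%, 24.2%, 26.6%, 15.7% and 17.1% in that order, and calls in either direction 34.2%, 45.5%, 58.1%, 35.4% and 36.7%. Its median log2 changes, in that order, were -1.07, -0.81, -1.25, -0.36 and -0.32. Epas1, a hypoxia-inducible transcription factor, fell by 6.74 on the log2 scale with A485.

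A list of genes that set or maintain imprints gave more lower than higher calls in each of these 5 comparisons. It includes Dnmt3a, Dnmt3l and Kdm1b as well as Polycomb genes such as Eed. Not all of them fell: on the log2 scale Kdm1b was called higher with SAHA (0.73), A485 (1.96) and TSA (1.49). The other higher calls against Vehicle were Smchd1 (1.42) and Zfp445 (0.72) with A485, and Setdb1 (1.05) and Dppa3 with TSA. Dnmt3a was called lower with SAHA (-1.57) and TSA (-2.20) and was not called with A485 (0.34). The list gave 1 higher and 10 lower of 17 with siP300, 2 higher and 7 lower of 17 with siComb, 1 higher and 6 lower of 16 with SAHA, 3 higher and 6 lower of 16 with A485 and 3 higher and 8 lower of 16 with TSA. Over all genes, 19.7% were higher and 15.7% lower with siP300, 19.6% and 17.1% with siComb, 20.2% and 14% with SAHA, 21.4% and 24.2% with A485 and 31.6% and 26.6% with TSA. Dnmt3l, the cofactor of the de novo DNA methyltransferases, and Trim28, the partner of ZFP57, were lower with siP300 by log2 changes of -1.20 and -1.09. With A485, Dnmt3l had a log2 change of -2.10. Dppa3, which protects maternal DNA methylation in the zygote, was lower with A485 by a log2 change of -5.71 and was called higher with TSA (0.73). In the inhibitor family Zfp57 was lower with SAHA (-1.95) and TSA (-2.79) and was not called with A485 (-0.40). The changes stand here beside those of the imprinted genes, and no relation between them was tested.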

How the data were processed

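Gene counts came from 27 poly(A)-selected libraries, 3 per group. The authors deposited unnormalized whole-number counts for each gene. The submitters' processing notes name STAR 2.7.11a, featureCounts, Subread 2.0.6, MultiQC, Scanpy 1.8.2 and the builds mm10 and GRCh38 without roles. Neither the strand setting, the pair handling nor the annotation is stated in those notes. Of the nonzero counts 84.5% were even, so both reads of a pair may have been counted, which would make the floors too low and the counting intervals too narrow. The 2 MERVL rows were left out of library sizes and fits.

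edgeR 4.0.16 (R 4.3.3; TMM scaling, filterByExpr with a minimum count of 10, quasi-likelihood test, Benjamini-Hochberg adjustment over all genes tested, threshold 0.05) was fitted once to the 12 inhibitor libraries (18297 genes) and once to the 15 siRNA libraries (19180 genes). The ± after a log2 fold change is a standard error, the absolute log2 change divided by the square root of F; the ± after a level is an SD over 3 libraries. CPM are scaled by TMM within a family. Totals of 7557591 to 11988857 counts limit precision for genes with few counts. The design text calls the pools biological replicates, and no 2 libraries of a group agreed within sampling noise. A fold against a group at 0 uses a floor of 3 counts over the group. The fit was also run on counts simulated from the same kind of model that it fits. Such a run cannot show that the calls on these data are right. Alternatives were DESeq2 1.42.0, its size factors in edgeR, library size alone, no filter, the replicate number as a block and leaving out each library.

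The 40 genes, the other lists and the tests were chosen with earlier results of these data known. Values in every library are given for genes called against a control with a mean of at least 10 CPM in a group, and for Dlk1-Meg3 genes, Nap1l5 and Ndn where a result turns on them. Of other lists up to 3 genes per comparison, by smallest adjusted p, could be named, and host genes where they overlap a member. Nap1l4, Tssc4, Tnfrsf23, Dhcr7, Kdm1b, Smchd1, Zfp445 and Setdb1 were named after their values were seen. So were Zfp57, the inhibitor values of Dnmt3a and the TSA value of Dppa3. Gene positions are from GENCODE vM21 (GRCm38).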

Additional observations from a re-analysis of the deposited data

How the results depend on the processing

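No called gene changed sign under any alternative tried, but the direction of most calls did turn in some direct comparisons (splits below). With DESeq2, 2 imprinted genes were called for siKat6b and 7 for siComb against siP300 (0 and 3 with edgeR); with no filter on low counts the numbers were 4 and 7. Leaving out 1 library at a time gave 7 to 10 called genes for SAHA, 14 to 18 for A485, 13 to 16 for TSA, 7 to 9 for TSA against SAHA (lowest without SAHA 2; 12 with all libraries), 17 to 23 for TSA against A485, 18 to 21 for siP300, 0 to 0 for siKat6a, 0 to 1 for siKat6b (1 without siKat6b 2), 21 to 23 for siComb and 1 to 3 for siComb against siP300 (1 without siComb 1). The cause of these differences was not tested, beyond the smaller number of libraries. Without the 4 siRNA libraries with high MERVL, an alternative chosen after seeing the data, the numbers were 22 for siP300, 0 for siKat6b, 22 for siComb and 3 for siComb against siP300.

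Same-numbered libraries correlated from -0.0948 to 0.358 in their deviations from group means, and no comparison had every pair above 0.1, so the numbers were not taken to pair the samples. With the replicate number as a block the counts were 12 for SAHA, 15 for A485, 14 for TSA, 13 for TSA against SAHA, 18 for TSA against A485, 19 for siP300, 0 for siKat6a, 0 for siKat6b, 22 for siComb and 2 for siComb against siP300.

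Library size alone moved the median log2 change of all genes by 0.32 with siP300, 0.26 with siComb and -0.13 for TSA against A485, and DESeq2's size factors moved it by 0.14 for TSA and by 0.11 for TSA against SAHA and TSA against A485. The share of higher among called genes went from 55.8% to 77% for siP300 and from 53.5% to 70.4% for siComb with library size alone, and from 64.7% to 47.5% for siComb against siP300. It went from 45% to 56.9% for TSA against SAHA with DESeq2's size factors. Among the imprinted genes, the 9 higher and 3 lower of TSA against SAHA became 7 and 7 with library size alone, 7 and 6 with no filter and 11 and 2 with DESeq2's size factors, and the 9 and 10 of TSA against A485 became 10 and 8 with DESeq2's size factors, 13 and 9 with DESeq2 and 13 and 10 with no filter. Of the 22 imprinted genes called with siComb, 21 were called under every alternative, as were 17 of 21 with siP300, 13 of 14 with TSA, 14 of 16 with A485 and 6 of 10 with SAHA. Genes with few counts, such as Dlk1, Ndn and Mirg, are limited by depth.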
